A study of Mus musculus with 106 samples.

Results

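The animals described here are female C57BL/6J mice, an inbred laboratory strain widely used for diet-induced obesity, fed either a chow diet, written CD, or a high-fat diet, written HFD. They are the 3 liver libraries labelled C57BL/6J f HFD and the 3 labelled C57BL/6J f CD, 6 of the 106 RNA-seq libraries of the series, and they were chosen by their labels alone, with every gene of the deposited table kept. Each library holds the liver RNA of 1 mouse, so the 3 libraries of a group are separate animals. The labels name no genetic alteration or drug in any group. All mice were 21 weeks old, and the high-fat group had received its diet from 8 weeks of age. By the labels, fat gave 6% of the calories of CD and 60% of those of HFD, protein 20% of both, and carbohydrate 74% and 20%, so the diets differ in carbohydrate as well as in fat. The mice were bred at one site under a 12 h light cycle with free access to food, and livers were taken in the morning after perfusion. Beside the females stand the 6 C57BL/6J males, 3 on each diet with the same ages and diets, and 48 libraries from females of the other 8 strains. The C57BL/6J animals carry a label series of their own, so a difference between C57BL/6J and the other strains cannot be told apart from one between the label series.

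The animal numbers in the labels limit the design. The females on HFD and the males on CD carry neighbouring numbers. The males on HFD and the females on CD carry higher numbers, in separate stretches of their own. Within females, diet and number stretch therefore cannot be told apart, and the difference between the female and the male response also sets the low numbers against the higher ones. The average of the female and male responses has low and higher numbers on both diets. It is given below beside the main gene groups, but since the higher stretches are separate it does not remove such differences. The labels speak of cohorts that entered the study at staggered times but assign no cohort to a sample.

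The liver clears dietary nutrients as they arrive from the gut. Hepatocytes near the portal vein break down amino acids and turn the released nitrogen into urea, whereas those around the central vein capture leftover ammonia as glutamine and carry much of the drug metabolism. Resident macrophages, the Kupffer cells, line the sinusoids. Type I and type II interferons act through receptors that activate STAT proteins, which bind short promoter elements and switch on a shared set of antiviral and guanylate-binding genes. Mouse liver is also strongly sexually dimorphic, since the pulsed growth hormone of males and the steadier hormone of females keep different sets of genes active, the major urinary proteins (Mup) among the male set.

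Total gene counts ran from 48847267 to 64520254 in the female HFD libraries and from 48163362 to 54495605 in the CD libraries, and 14242 to 14275 of the 14330 genes of the table had counts. The albumin gene Alb stood at 60270 to 83380 CPM (counts scaled to the library total with TMM normalisation factors) in the 6 libraries, and Xist was above 219 CPM with Ddx3y at or under 0.058 CPM in each, so the sex-linked genes match the female label. C57BL/6J mice are known to carry a partial deletion of Nnt, a mitochondrial transhydrogenase gene, and Nnt stood at 0.573 to 0.740 CPM on HFD and at 1.10 to 1.83 CPM on CD. The share of gene counts from mitochondrial transcripts was 4.13% to 4.84% on HFD and 5.60% to 5.74% on CD, and the share of reads that matched more than 1 gene was 5.66% to 5.88% on HFD and 5.14% to 5.24% on CD. Neither share overlapped between the diets, and its part in the results was not tested. One library that enters the comparison between strains and the shared estimate of spread, labelled 129S1/SvImJ f CD replicate 1, has sex-linked genes that go against its label, so that comparison is given with and without it.

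In C57BL/6J females 1786 of the 14330 genes tested differed between the diets at an adjusted p under 0.05, 836 higher on HFD and 950 lower. Throughout, adjusted p is the Benjamini-Hochberg value of edgeR's quasi-likelihood test over all genes, and a log2 fold change is HFD over CD with its standard error. The called share was 12.5% of genes, 5.83% higher and 6.63% lower, and the median log2 fold change of all genes was −0.00. Whether more genes were higher or lower depended on the fit: 925 were higher and 869 lower with RLE size factors, 1044 and 988 with DESeq2, and 1688 and 1522 with the 6 female libraries alone. Most changes were modest: the median size among called genes was 0.71 on the log2 scale, against 0.249 over all genes, and 276 genes rose and 251 fell by at least 1. The CPM of the 3 HFD libraries lay wholly above those of the 3 CD libraries for 21.2% of genes and wholly below for 19.7%, 41.0% in all. When the test was run against a minimum change of 0.5 on the log2 scale, 126 genes remained past the threshold. The count without 1 library was 885 without HFD replicate 1, 775 without HFD replicate 2, 736 without CD replicate 1 and 720 without CD replicate 2.

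**Figure D1:**
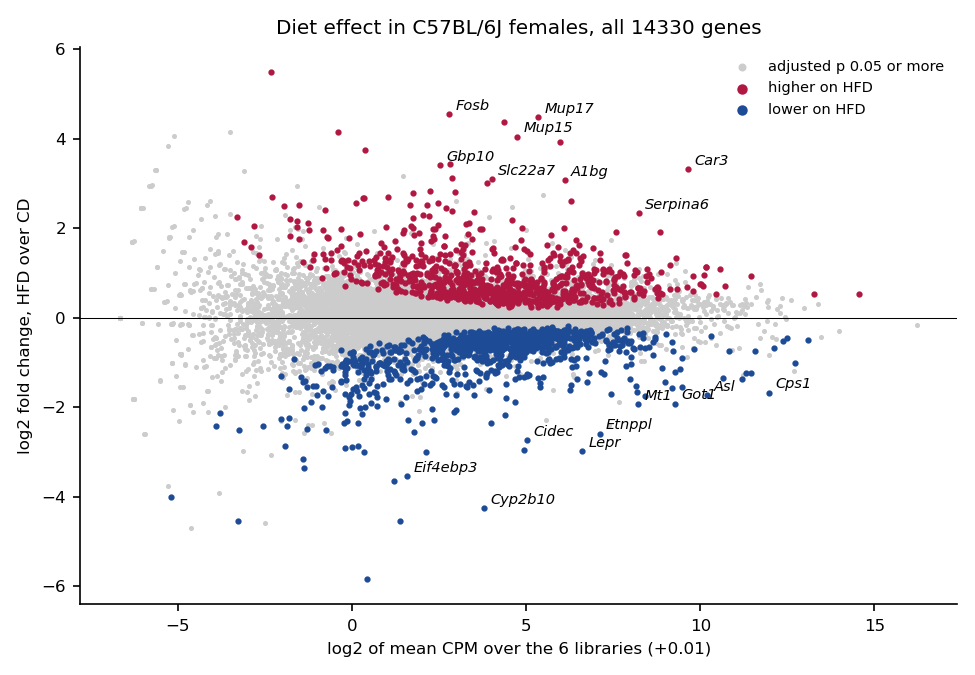
Log2 fold change of HFD over CD in C57BL/6J females (vertical axis) against log2 of the mean CPM over the 6 libraries (horizontal axis); each point is 1 gene and coloured points have an adjusted p under 0.05 by edgeR. The 836 called rises and 950 called falls are spread over the whole range of expression, with the largest changes among genes of low and middle level.

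Several of the largest rises were in immediate early genes (Fosb and Fos), in the urinary protein cluster and in genes of sex-dependent liver metabolism, described further on. Outside these groups the rises included Gbp10, an interferon-induced guanylate-binding protein, and Car3, carbonic anhydrase III, which is abundant in fat cells and hepatocytes. Car3 stood at 153, 129 and 154 CPM on CD and at 1847, 1404 and 1124 CPM on HFD, the lowest HFD library being far above the highest CD library. Its log2 fold change was 3.33 ± 0.68 (adjusted p = 0.000638), and it was 3.23 in males. Serpina6, which encodes the corticosteroid-binding globulin of plasma, was at 91.1, 89.1 and 120 CPM on CD and at 396, 653 and 464 CPM on HFD, a log2 fold change of 2.34 ± 0.46 (adjusted p = 0.00044). Slc22a7, an organic anion transporter of hepatocytes, rose from 3.20, 3.77 and 3.25 CPM to 30.5, 19.6 and 37.4 CPM (3.10 ± 0.44, adjusted p = 1.45e-06). Gclc, the catalytic subunit of glutathione synthesis, rose from 123, 117 and 144 CPM to 379, 348 and 288 CPM (1.40 ± 0.23, adjusted p = 3.28e-05). None of these 4 genes overlapped between the diets, and each remained past the threshold without any single library.

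Among called genes with separate groups and a mean of at least 1 CPM, predicted genes left out, the largest fall was in Cyp2b10, a cytochrome P450 induced through the nuclear receptor CAR. It was at 29.1, 30.1 and 20.0 CPM on CD and at 1.35, 1.89 and 0.873 CPM on HFD, a log2 fold change of −4.25 ± 0.90 (adjusted p = 0.000964). The male value was 0.16, and reads of this gene can be shared with the near-identical Cyp2b genes. Slc4a9, an anion exchanger, fell from 3.54, 4.80 and 4.39 CPM to 0.201, 0.378 and 0.437 CPM (−3.65 ± 0.61), and Eif4ebp3, a repressor of cap-dependent translation, fell from 3.99, 6.04 and 6.52 CPM to 0.325, 0.393 and 0.721 CPM (−3.54 ± 0.54, adjusted p = 6.52e-06). Both lost most of their transcript in every HFD mouse. Lepr, the leptin receptor, of which the liver makes mainly the short and soluble forms, was at 169, 197 and 152 CPM on CD and at 11.5, 22.7 and 31.1 CPM on HFD. Its log2 fold change was −2.99 ± 0.89 (adjusted p = 0.0177), but without HFD replicate 1 the value of −2.67 had an adjusted p of 0.101. In males Lepr was at 42.4, 50.8 and 16.8 CPM on CD and at 2.19, 3.77 and 5.30 CPM on HFD, a log2 fold change of −3.29.

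Etnppl, a phosphoethanolamine lyase of fasted liver, fell from 215, 246 and 254 CPM to 31.6, 36.8 and 50.3 CPM (−2.59 ± 0.78, adjusted p = 0.019), with an adjusted p of 0.0891 without HFD replicate 1. Zbtb16, a glucocorticoid-induced zinc-finger factor, was uneven among the CD mice, at 12.9, 72.0 and 78.4 CPM against 6.13, 8.69 and 6.09 CPM on HFD. Its fall of 2.96 on the log2 scale was lost without any 1 of 5 libraries, with an adjusted p up to 0.138. Cib3 (−2.99 ± 0.70), a calcium-binding protein, was at 2.01, 3.17 and 1.52 CPM on CD and between 0.272 and 0.285 CPM on HFD. Fam222a (−3.00) and the adrenergic receptor gene Adra2a (−2.56) complete the 10 largest falls of at least 1 CPM with the lipid droplet gene Cidec. Without HFD replicate 2 Fam222a had an adjusted p of 0.0556, and without CD replicate 1 Adra2a had 0.185.

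Interferon-stimulated genes were higher on HFD as a group. Of 41 measured members of the list, 25 were called higher and 0 lower, with a median log2 fold change of 1.18 against −0.00 over all genes. Over all genes 5.83% were called higher and 6.63% lower. In 38 of the 41 the HFD libraries lay wholly above the CD libraries, against 21.2% of all genes. The number called depended on single libraries: it was 14 without HFD replicate 1, 16 without HFD replicate 2, 12 without CD replicate 1 and 15 without CD replicate 2, and 5 against a minimum change of 0.5. In the average over both sexes 28 members were called higher and 0 lower, with a median of 0.80.

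The oligoadenylate synthetases sense double-stranded RNA and activate RNase L. Oas3 rose from 1.41, 1.14 and 1.17 CPM to 4.54, 6.11 and 4.86 CPM (2.05 ± 0.37, adjusted p = 0.000127). Oas1a was at 1.66, 2.59 and 2.73 CPM on CD and at 6.58, 9.30 and 7.59 CPM on HFD (1.75 ± 0.37, adjusted p = 0.000956), and Oas1g and Oas2 rose by 1.72 and 1.41. Each of these 4 genes was higher in every HFD mouse than in any CD mouse and kept its call without any 1 of the 6 libraries, and the average over both sexes was 1.18 for Oas3 and 0.94 for Oas1a, both called. The Oas1 genes are close copies of each other, so counts can be split among them.

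Isg15, a ubiquitin-like protein that is attached to cellular and viral proteins, rose from 3.74, 4.92 and 6.14 CPM to 17.1, 17.9 and 15.1 CPM (1.76 ± 0.43, adjusted p = 0.00395). Ifi27l2a, a mitochondrial interferon-induced protein, rose from 2.48, 2.15 and 1.94 CPM to 6.77, 10.2 and 6.24 CPM (1.82 ± 0.40, adjusted p = 0.00169). Bst2, the tetherin that holds budding virus at the cell surface, was among the more abundant members, at 61.9, 70.8 and 67.2 CPM on CD and at 124, 147 and 108 CPM on HFD (0.92 ± 0.22). All 3 genes were separate between the diets and kept their calls without any single library. Averaged over both sexes, Isg15 was called (1.05, adjusted p = 0.00825), whereas Ifi27l2a (0.64, adjusted p = 0.0910) and Bst2 (0.25, adjusted p = 0.282) did not pass the threshold. The immunity-related GTPase Irgm1 stood at 9.48, 11.8 and 13.6 CPM on CD and at 30.5, 30.5 and 24.8 CPM on HFD (1.30 ± 0.30, adjusted p = 0.00201).

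Among the regulators of the pathway, Irf7, which amplifies type I interferon production, rose from 26.3, 32.2 and 28.2 CPM to 63.1, 87.5 and 69.2 CPM (1.34 ± 0.33, adjusted p = 0.0042). Members of the complex that type I interferon assembles did not pass the threshold, Stat2 at 0.58 (adjusted p = 0.16) and Irf9 at 0.61 (adjusted p = 0.127). Cxcl10, a chemokine that draws T cells, was at 1.74, 1.51 and 2.87 CPM on CD and at 12.6, 7.11 and 4.46 CPM on HFD (1.98 ± 0.56, adjusted p = 0.0121), and had an adjusted p of 0.106 without HFD replicate 1. Irf7 overlaps Phrf1 and Cxcl10 overlaps Art3 on the other strand, and the strand setting of the counting is not given in the sources used here.

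The guanylate-binding proteins attack the vacuoles of intracellular microbes and respond mainly to type II interferon. Of the 11 measured Gbp genes, a family listed after its values were seen, 9 were called higher and 0 lower (median 1.32). The shares over all genes were 5.83% and 6.63%. The number called higher was 6 without HFD replicate 1, without HFD replicate 2 or without CD replicate 1, and 5 without CD replicate 2. Gbp10 was at 0.653, 1.18 and 1.15 CPM on CD and at 14.9, 9.75 and 6.91 CPM on HFD, with a log2 fold change of 3.40 ± 0.59 (adjusted p = 6.31e-05). It lies on chromosome 5 in a cluster of close copies, overlaps a predicted gene on its own strand, and rose by 2.91 in males. All 11 Gbp genes were called higher in the average over both sexes (median 1.20). Gbp3 stood at 7.46, 8.09 and 9.68 CPM on CD and at 26.2, 25.1 and 21.7 CPM on HFD (1.53 ± 0.38, adjusted p = 0.00392).

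Promoters of the members that rose carried the letters of the interferon-stimulated response element more often than promoters at large. The motif searched was a pair of GAAA half-sites with any 2 bases between them, or TTTC half-sites where it lies on the other strand, in the window from 250 bases before to 50 after the RefSeq start of each gene (GRCm38.p6). It was present in 3.99% of all RefSeq windows, 1079 of 27025, and in 3.89% of those of tested genes. Among interferon-list members with a window, 18 of 32 (56.2%) held it, 14 of the 20 called higher and 4 of the 12 others. All 5 matched Gbp genes held it, against 1 of 26 macrophage genes and 2 of 27 amino acid genes. A match is a description of letters and not of a bound site. The stretches of 4 genes that end at or near the start site are shown, because these genes rose and carry the motif close to the start; capitals mark the matches, and all are read along the gene's strand. They lie at chr5:120777660-120777779 on the minus strand for Oas3, chr5:120887614-120887733 on the minus strand for Oas1g, chr5:120907526-120907645 on the minus strand for Oas1a, and chr3:142559924-142560043 on the plus strand for Gbp3.
Oas3: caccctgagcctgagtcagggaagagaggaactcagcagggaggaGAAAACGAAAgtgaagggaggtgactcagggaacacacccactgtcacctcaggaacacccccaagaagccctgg
Oas1g: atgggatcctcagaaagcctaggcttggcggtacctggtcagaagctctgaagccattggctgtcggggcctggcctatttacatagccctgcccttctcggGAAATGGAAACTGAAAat
Oas1a: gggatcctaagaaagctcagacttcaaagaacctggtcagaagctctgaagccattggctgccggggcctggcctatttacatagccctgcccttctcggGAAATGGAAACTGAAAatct
Gbp3: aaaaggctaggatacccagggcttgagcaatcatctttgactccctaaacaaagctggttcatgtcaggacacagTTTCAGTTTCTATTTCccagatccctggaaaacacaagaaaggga
The Oas1g and Oas1a stretches hold the same run of overlapping matches just before the start, and Gbp3 holds overlapping matches in the opposite orientation.

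Macrophage genes were also higher on HFD in these females, less so in the average over both sexes. Of 37 measured members 12 were called higher and 0 lower, against 5.83% of all genes called higher, and the median was 0.74. The HFD libraries lay wholly above the CD libraries in 30 of the 37, against 21.2% of all genes. The number called was 5 without HFD replicate 2, 5 without CD replicate 1 and 5 without CD replicate 2, 1 against a minimum log2 change of 0.5, and up to 27 under the other alternatives. Averaged over both sexes, 5 were called higher and 1 lower, with a median of 0.28. Summed over the list, macrophage markers took 775 to 788 CPM on CD and 1327 to 1500 CPM on HFD. In bulk liver, more cells of a type and more RNA per cell cannot be told apart.

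The Kupffer cell lectin Clec4f was at 97.8, 95.9 and 93.0 CPM on CD and at 183, 235 and 185 CPM on HFD, a log2 fold change of 1.07 ± 0.22 (adjusted p = 0.00053). Adgre1, which encodes the F4/80 antigen, rose from 15.6, 15.2 and 17.1 CPM to 31.7, 42.6 and 36.5 CPM (1.21 ± 0.28, adjusted p = 0.00267). C1qa, a chain of the first complement component made by macrophages, rose from 47.7, 46.6 and 51.6 CPM to 98.5, 119 and 88.5 CPM (1.07 ± 0.27, adjusted p = 0.00558). The CD mice were close to each other for all 3 genes, and each call held without any 1 library. Averaged over both sexes, Clec4f (0.46) and Adgre1 (0.57) were called, and C1qa was at 0.29 with an adjusted p of 0.304. Ccl2, the chemokine that recruits monocytes, was low on CD at 0.352, 0.290 and 0.346 CPM and stood at 2.76, 2.60 and 1.03 CPM on HFD (2.68 ± 0.66, adjusted p = 0.00388). Csf1r, the receptor for the macrophage growth factor, rose by 0.74 with an adjusted p of 0.0242, and with 0.0989 without HFD replicate 2. Genes tied to recruited or lipid-associated macrophages did not pass the threshold: Trem2 stood at 0.67 (adjusted p = 0.317), Ccr2 at 0.59, Itgax at 0.66 and Gpnmb at 0.13.

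Markers of other cell types had few calls, which does not show that they were level between the diets. No member was called among 7 measured cholangiocyte, 9 T and NK cell, 15 B and plasma cell, 14 granulocyte and 8 erythrocyte markers. Their summed levels on CD and HFD were 155 to 159 and 145 to 173 CPM for cholangiocytes, 25.5 to 29.2 and 25.04 to 32.2 CPM for T and NK cells (8 of 9 members above 0, median log2 fold change 0.47), and 338 to 468 and 298 to 373 CPM for B and plasma cells. Granulocyte markers summed to 6.10 to 8.53 CPM on CD and 10.2 to 13.8 CPM on HFD, without overlap (median 0.57), with at most 3 counts of the defining gene Ly6g in any of the 6 libraries. Of 15 endothelial markers only Ptprb was called, and it was lower, while 11 of the 15 had a log2 fold change under 0. Erythrocyte markers summed to 25.1 to 65.7 CPM on CD and 45.8 to 82.1 CPM on HFD, with 7 of 8 members above 0 (median 0.865). The 3 measured pancreas markers summed to 4.54 to 5.32 and 7.02 to 7.62 CPM, without overlap, and none was called. The part of these markers in the results was not tested. Of the adipocyte list 6 of 12 genes are in the table, and the defining genes Adipoq, Lep, Retn and Plin1 are not among them. The adipocyte sum of 198 to 249 CPM on CD and 1150 to 1878 CPM on HFD was mostly Car3, while Cidec of the same list fell. Ptprb had an adjusted p of 0.185 without CD replicate 1.

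Amino acid breakdown and urea synthesis moved the other way. Of 39 measured genes 17 were called lower and 3 higher, against 6.63% and 5.83% of all genes. The median log2 fold change was −0.54, and the HFD libraries lay wholly below the CD libraries in 22, against 19.7% of all genes. Between 13 and 17 genes were called lower when any 1 library was left out and 8 against a minimum log2 change of 0.5. In the average over both sexes 20 were called lower and 5 higher, with a median of −0.42. The first step of the urea cycle is carried by Cps1 on chromosome 1, which fixes ammonia in mitochondria. Cps1 was at 5702, 5759 and 6851 CPM on CD and at 1314, 1921 and 2493 CPM on HFD, a log2 fold change of −1.68 ± 0.26 (adjusted p = 6.74e-06). Ass1, which joins citrulline to aspartate, fell from 3730, 3869 and 4255 CPM to 1237, 1695 and 2124 CPM (−1.23 ± 0.24, adjusted p = 0.000371). Asl, which splits the product into arginine, fell from 1750, 1813 and 1873 CPM to 410, 557 and 673 CPM (−1.73 ± 0.27, adjusted p = 6.74e-06). Cps1, Ass1 and Asl were lower in every HFD mouse than in any CD mouse, and their calls held without any single library. Otc, which makes citrulline, did not pass the threshold, at 234, 262 and 289 CPM on CD and at 411, 445 and 381 CPM on HFD (0.66, adjusted p = 0.157). Nags, which makes the activator of Cps1, had a log2 fold change of 0.11. The 3 genes called higher were Glul, Agxt2 (0.54) and Prodh2 (0.58), of glyoxylate and hydroxyproline metabolism for the last pair. Without CD replicate 1 these 3 had adjusted p of 0.0755, 0.0740 and 0.132.

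Enzymes that feed nitrogen and carbon into these routes fell as well. Hal, which begins histidine breakdown, fell from 876, 906 and 847 CPM to 254, 312 and 324 CPM (−1.56 ± 0.28, adjusted p = 0.000124). Sds, the serine dehydratase, fell from 166, 157 and 146 CPM to 41.6, 55.9 and 74.9 CPM (−1.44 ± 0.32, adjusted p = 0.00149). Mat1a, which makes the methyl donor S-adenosylmethionine, was among the most abundant, at 9019, 8928 and 9086 CPM on CD and at 3660, 4643 and 5168 CPM on HFD (−1.005 ± 0.20). Cth, which makes cysteine from cystathionine, fell from 948, 1152 and 1089 CPM to 284, 338 and 471 CPM (−1.55 ± 0.34, adjusted p = 0.00164). All of these were lower in all 3 HFD mice, with HFD replicate 1 the lowest each time. Got1, the cytosolic aspartate aminotransferase, was at 997, 1076 and 881 CPM on CD and at 158, 263 and 360 CPM on HFD (−1.92 ± 0.52, adjusted p = 0.00952), and at −1.65 with an adjusted p of 0.0802 without HFD replicate 1. Slc7a2, a cationic amino acid transporter, fell by 1.16 on the log2 scale.

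Markers of the lobular zones also differed between the diets, although bulk RNA does not show position. Of 14 periportal markers 9 were called lower and 1 higher, with a median of −0.99, and their summed level was 20564 to 23851 CPM on CD against 10105 to 13973 CPM on HFD. Part of this list is shared with the genes above, Cps1, Ass1, Hal and Sds among them, so its falls partly repeat theirs. Of 14 pericentral markers 4 were called higher and 0 lower, against 5.83% and 6.63% of all genes, with a median of 0.38 and summed levels of 10426 to 15061 CPM on CD against 15222 to 18537 CPM on HFD. Glul, the glutamine synthetase of the innermost pericentral hepatocytes, was at 707, 794 and 962 CPM on CD and at 1334, 1281 and 1378 CPM on HFD (0.70 ± 0.19, adjusted p = 0.01), with an adjusted p of 0.0755 without CD replicate 1. Cyp2e1, which oxidises ethanol and other small molecules, rose by 0.52 (adjusted p = 0.0425), with 0.42 and an adjusted p of 0.213 without that mouse. Gulo, the last enzyme of vitamin C synthesis, rose from 193, 205 and 290 CPM to 457, 502 and 495 CPM (1.08 ± 0.22, adjusted p = 0.000705). The ammonia transporter Rhbg rose by 1.27, with an adjusted p of 0.0502 without CD replicate 1. Summed hepatocyte markers were 130010 to 149370 CPM on CD and 114090 to 137090 CPM on HFD and overlapped.

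**Figure D2:**
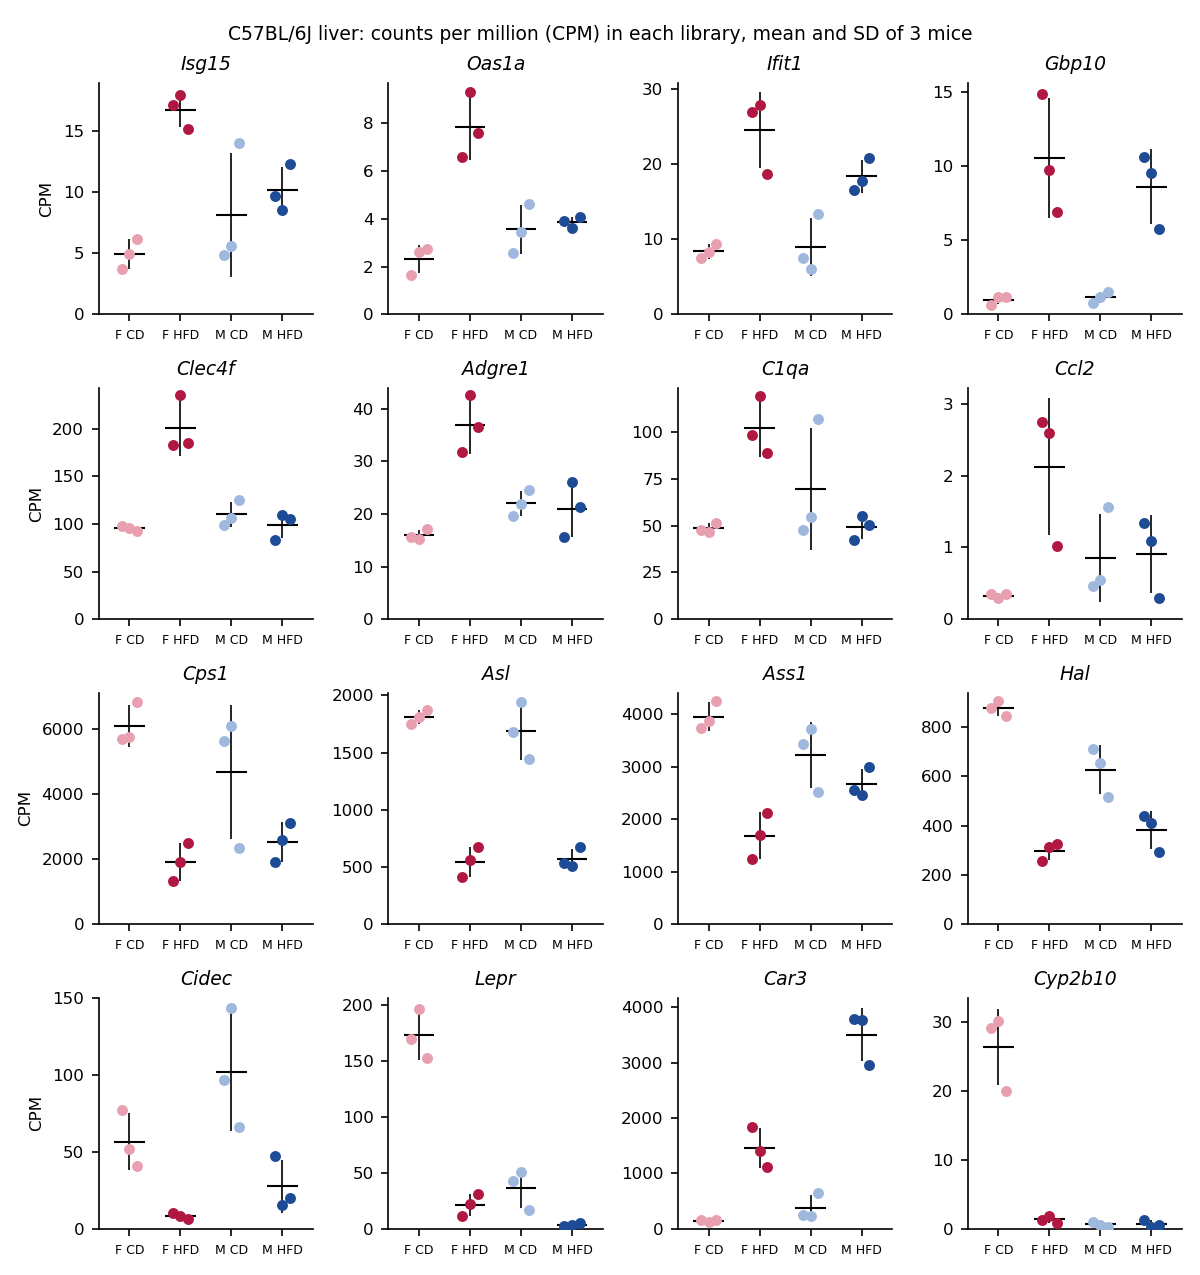
CPM (vertical axis, 1 panel per gene, each from 0) of 16 genes in every C57BL/6J library, by sex and diet (F CD, F HFD, M CD, M HFD); points are single mice and bars show the mean and SD of 3. In females the interferon and macrophage genes are higher on HFD without overlap and Cps1, Asl, Ass1 and Hal are lower, while Lepr and Car3 move alike in both sexes.

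Lipid genes changed member by member and not in one direction. Of 27 measured lipid droplet and lipase genes 6 were called lower and 3 higher, against 6.63% and 5.83% of all genes, with a median of −0.10. Without HFD replicate 1, HFD replicate 2, CD replicate 1 or CD replicate 2, 0 were called higher, and 4 or 5 were called lower without any 1 library. Cidec, which fuses lipid droplets, fell from 76.8, 52.2 and 40.8 CPM to 10.2, 8.38 and 6.70 CPM (−2.74 ± 0.67, adjusted p = 0.00394), and its male value was −1.89. Pnpla2, the adipose triglyceride lipase, fell from 227, 225 and 190 CPM to 86.4, 78.6 and 103 CPM (−1.26 ± 0.32, adjusted p = 0.00573). Hsd17b13, a droplet-bound dehydrogenase, fell from 752, 738 and 753 CPM to 506, 452 and 378 CPM (−0.75 ± 0.13, adjusted p = 7.58e-05). These 3 falls held without any 1 library. The droplet coat gene Plin2, often raised in fatty liver, stood at −0.10 (adjusted p = 0.896). Cd36, a fatty acid receptor, was at 113, 77.2 and 129 CPM on CD and at 289, 247 and 138 CPM on HFD, the lowest HFD mouse lying just above the highest CD mouse (1.08 ± 0.33, adjusted p = 0.0219), and had an adjusted p of 0.135 without CD replicate 2. Apoa4, an apolipoprotein of triglyceride-rich particles, fell from 537, 501 and 528 CPM to 243, 87.0 and 134 CPM (−1.75 ± 0.46), with an adjusted p of 0.0777 without HFD replicate 2.

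In fat synthesis the number of calls was near that over all genes, of which 12.5% were called. Of 25 fatty acid synthesis genes 2 were called higher and 1 lower (median 0.07), with Fasn, the fatty acid synthase, at 0.20 (adjusted p = 0.745) and the desaturase gene Scd1 at −0.73 (adjusted p = 0.581). Srebf1, the transcription factor of this pathway, rose from 60.0, 42.3 and 27.4 CPM to 81.2, 100 and 134 CPM (1.28, adjusted p = 0.0145), with an adjusted p of 0.0831 without CD replicate 3. The other two calls of the list were Mlxipl (0.67), the carbohydrate-responsive factor, and the carboxylase gene Acacb (−1.10), with adjusted p of 0.125 without CD replicate 1 and 0.134 without HFD replicate 2. Of 38 fatty acid oxidation genes 2 were called higher and 1 lower (median 0.03). The rises were Acads (0.43), a mitochondrial dehydrogenase, and Acot3 (1.72), a peroxisomal thioesterase, with adjusted p of 0.0564 without HFD replicate 1 and 0.156 without CD replicate 1. The peroxisomal enzyme Ehhadh was the fall, from 3840, 3223 and 3041 CPM to 1242, 1415 and 1274 CPM (−1.36 ± 0.34, adjusted p = 0.00538). Of 25 genes of cholesterol synthesis and uptake 2 were called higher and 1 lower in females (median 0.51), also near the share over all genes, and 9 higher and 0 lower in males (median 0.83). The female calls were Mvd (1.67) and Stard4 (1.04), higher, and Hsd17b7 (−0.88), lower, all enzymes or carriers of sterols. Each was lost without some libraries, with an adjusted p of 0.160 for Mvd without HFD replicate 1, 0.139 for Stard4 without CD replicate 1 and 0.0715 for Hsd17b7 without HFD replicate 2.

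The bile acid list had 1 gene called higher and 2 lower of 27 measured, against 12.5% of all genes called in either direction, with Cyp7a1, the rate-limiting enzyme of the classical route, at 0.47 (adjusted p = 0.787). Cyp39a1, which hydroxylates an oxysterol on an alternative route, fell from 114, 115 and 122 CPM to 37.4, 35.8 and 40.5 CPM (−1.63 ± 0.35, adjusted p = 0.00123). Slco1a4, an uptake transporter of the sinusoidal membrane, fell from 428, 423 and 481 CPM to 104, 151 and 165 CPM (−1.66 ± 0.41, adjusted p = 0.00394). Abcb11, the pump that secretes bile salts into the canaliculus, rose from 231, 208 and 281 CPM to 486, 469 and 408 CPM (0.92 ± 0.23, adjusted p = 0.00409). Of 32 glucose metabolism genes 5 were called lower and 1 higher (median −0.20). Slc37a4, which carries glucose 6-phosphate to the glucose-releasing phosphatase, fell from 270, 321 and 359 CPM to 118, 149 and 185 CPM (−1.07 ± 0.23, adjusted p = 0.00129). Gys2, the liver glycogen synthase, fell by 1.05 on the log2 scale, with an adjusted p of 0.0509 without HFD replicate 1. Ppargc1a, a coactivator of fasting metabolism, was at 34.8, 52.0 and 33.8 CPM on CD and at 9.92, 9.21 and 13.8 CPM on HFD (−1.87 ± 0.57, adjusted p = 0.0219), with an adjusted p of 0.103 without HFD replicate 2. The gluconeogenic enzymes Pck1 (−0.49, adjusted p = 0.364) and G6pc (−0.07, adjusted p = 0.938) did not pass.

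Large changes were found in the urinary protein genes, which encode pheromone-binding proteins secreted by the liver and are most active in males. Of 20 measured Mup genes, pseudogenes not counted and listed after their values were seen, 9 were called higher in females on HFD and 0 lower (median 1.38). The shares over all genes were 5.83% and 6.63%. The number called higher was 5 without HFD replicate 3 and 6 without CD replicate 1. Averaged over both sexes, 3 were called higher and 1 lower, with a median of 0.20. Mup15, on chromosome 4, was at 2.93, 2.81 and 3.39 CPM in females on CD and at 42.1, 33.0 and 75.8 CPM on HFD, a log2 fold change of 4.05 ± 0.42 (adjusted p = 8.35e-10). In males it was at 295, 406 and 320 CPM on CD and at 17.6, 236 and 71.6 CPM on HFD (−1.65, adjusted p = 0.0014). Females on HFD thus remained below every male on CD, and overlapped the males on HFD. Mup17 was at 2.90, 2.94 and 4.66 CPM in females on CD and at 84.5, 56.2 and 92.9 CPM on HFD (4.48 ± 0.61, adjusted p = 7.38e-07), against 418, 644 and 875 CPM in males on CD and 39.9, 369 and 118 CPM on HFD. Mup18 rose in females from 1.19, 0.832 and 1.56 CPM to 10.8, 10.1 and 17.7 CPM (3.43 ± 0.61, adjusted p = 9.12e-05).

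The values differed between members of the family, and 11 of the 20 were not called. Mup22 rose from 43.0, 66.0 and 55.4 CPM to 111, 145 and 170 CPM (1.38 ± 0.35, adjusted p = 0.00511), and Mup16 by 2.67. Mup11 (2.80), Mup14 (2.41), Mup19 (2.27) and Mup2 (1.39) were called too, but had an adjusted p of 0.132 without HFD replicate 3, and of 0.109, 0.0854 and 0.139 without CD replicate 1, respectively. Mup3, the most abundant member in females at a mean of 2072 CPM on CD, stood at 0.10 (adjusted p = 0.905), and Mup20, which encodes the pheromone darcin, at 0.15 (adjusted p = 0.916). Mup genes are near-identical copies, so the share of reads assigned to each member is uncertain.

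**Figure D3:**
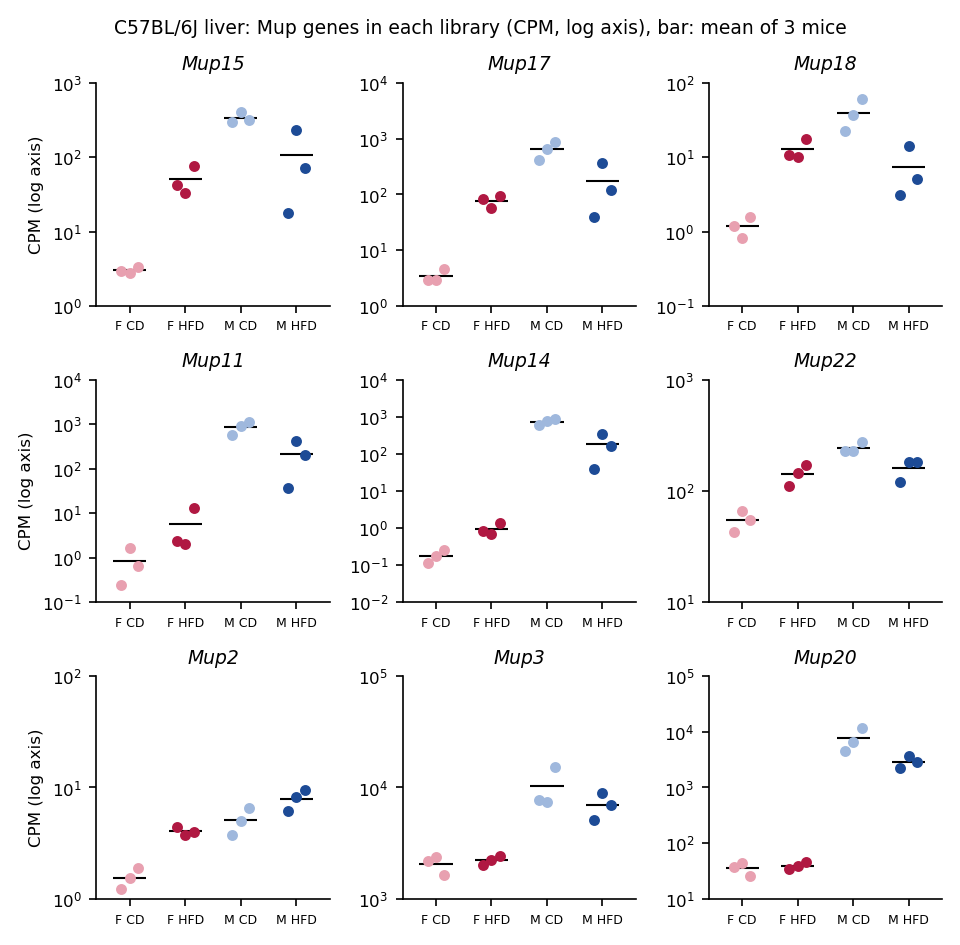
CPM (vertical axis, log scale) of 9 Mup genes in each C57BL/6J library by sex and diet; points are single mice and the bar is the mean of 3. Mup15, Mup17 and Mup18 rise in females and fall in males on HFD, whereas Mup3 and Mup20 were not called in females.

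Sex-biased genes outside this family gave a less uniform picture. Of 39 female-biased liver genes 7 were called higher and 1 lower (median 0.62), against 5.83% and 6.63% of all genes. The number higher was 4 without HFD replicate 1, HFD replicate 2 or CD replicate 2. Of 46 male-biased genes Cyp2j5 (0.68) and C8a (1.06) were called higher and Serpina1e (−1.51) lower (median 0.12), not above these shares. These 3 had adjusted p of 0.168 without CD replicate 1, 0.158 without HFD replicate 3 and 0.198 without HFD replicate 2, respectively. A1bg, a secreted protein made in female liver, rose from 10.6, 18.4 and 15.3 CPM to 121, 151 and 99.8 CPM (3.07 ± 0.77, adjusted p = 0.00493) and was at most 0.535 CPM in any C57BL/6J male. A1bg overlaps 4930402D18Rik on the other strand. Hao2, a hydroxy acid oxidase, was at 3.27, 1.61 and 4.85 CPM on CD and at 36.6, 34.2 and 7.82 CPM on HFD (3.02, adjusted p = 0.00208), with HFD replicate 3 nearest to the CD mice. The same mouse stood apart for Sult2a3, a sulfotransferase, at 1.83, 0.155 and 3.77 CPM on CD and 69.6, 47.1 and 1.69 CPM on HFD, where the diets overlap although the test gave 4.36 ± 0.84. It stood apart again for Cyp3a16, at 15.6, 6.41 and 44.9 CPM on CD and 201, 164 and 40.1 CPM on HFD, and Cyp3a16 had an adjusted p of 0.143 without CD replicate 2. Cyp17a1, the steroid 17-hydroxylase, was at 335, 366 and 570 CPM on CD and at 183, 123 and 136 CPM on HFD (−1.52, adjusted p = 0.0114), with an adjusted p of 0.0723 without HFD replicate 2. Cyp2b9, which rose by 6.91 in males, stood at 0.63 in females (adjusted p = 0.356). Of 54 xenobiotic metabolism genes 6 were called higher and 5 lower (median 0.21), against 5.83% and 6.63% of all genes, with 0 higher without HFD replicate 2, CD replicate 1 or CD replicate 2, and 1 without HFD replicate 1. Ugt1a9, a glucuronosyltransferase, fell from 40.2, 36.4 and 35.2 CPM to 16.7, 18.4 and 17.5 CPM (−1.09, adjusted p = 0.00876).

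Immediate early genes, which respond within minutes to growth factors and stress, included some of the largest changes. Of 22 measured members of a list made after the values were seen, 4 were called higher and 0 lower (median 0.53). Over all genes 5.83% were called higher and 6.63% lower. Fos was at 6.12, 6.85 and 10.5 CPM on CD and at 60.8, 86.0 and 209 CPM on HFD, a log2 fold change of 3.93 ± 1.02 (adjusted p = 0.00643). Fosb was at 1.01, 0.445 and 0.212 CPM on CD and at 7.31, 3.51 and 29.2 CPM on HFD (4.56 ± 0.86, adjusted p = 0.000229). HFD replicate 3 was the highest mouse for both, and both calls held without it. Averaged over both sexes, Fos was at 0.73 (adjusted p = 0.483) and Fosb at 1.63 (adjusted p = 0.0489), and the list had 2 called higher and 3 lower (median −0.01). Gadd45a, a growth arrest and DNA damage gene, rose from 2.03, 1.896 and 1.87 CPM to 9.77, 16.2 and 14.9 CPM (2.82 ± 0.69, adjusted p = 0.00388). Ier2 rose from 40.7, 43.3 and 54.6 CPM to 94.8, 110 and 170 CPM (1.44, adjusted p = 0.0107), with an adjusted p of 0.0657 without HFD replicate 3. Egr1 stood at 1.73 (adjusted p = 0.138). The order in which the mice were killed within the morning is not given in the labels.

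Some genes for RNA-binding proteins fell. Of 20 Hnrnp genes, which encode nuclear proteins that package transcripts, 7 were called lower and 0 higher (median −0.25). The shares over all genes were 6.63% and 5.83%. The number lower was 4 without HFD replicate 1, CD replicate 1 or CD replicate 2 and 3 without HFD replicate 2. Hnrnpa1 fell from 119, 122 and 111 CPM to 52.3, 49.1 and 66.0 CPM (−1.07 ± 0.14, adjusted p = 3.2e-07). Rbmx, an X-linked splicing regulator that overlaps Snord61, fell from 22.4, 29.0 and 25.1 CPM to 12.3, 11.4 and 12.1 CPM (−1.10 ± 0.15, adjusted p = 6.85e-07). Of 10 Srsf splicing factors 2 were called lower, Srsf3 and Srsf7, against 6.63% of all genes. Srsf3 fell from 78.0, 78.7 and 70.1 CPM to 40.1, 35.7 and 43.5 CPM (−0.93 ± 0.14, adjusted p = 6.74e-06), and Srsf7 by 0.63, with an adjusted p of 0.0626 without CD replicate 2. Rbm3, the cold-inducible RNA-binding protein, fell from 56.0, 61.6 and 58.7 CPM to 18.3, 20.2 and 30.5 CPM (−1.36 ± 0.21, adjusted p = 1.05e-05), and Hnrnpdl by 0.95. Hnrnpa1, Rbmx, Srsf3, Rbm3 and Hnrnpdl were lower in all HFD mice and held without any single library, and Rbm3 overlaps an antisense transcript. The Hnrnp and Srsf lists were made after the values were seen.

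Other genes with small p-values were of mixed function. Gfra1, a receptor for glial-derived growth factor, fell from 385, 374 and 345 CPM to 107, 149 and 173 CPM (−1.37 ± 0.19, adjusted p = 7.38e-07). Scamp1, a membrane carrier protein, fell from 61.8, 59.7 and 59.5 CPM to 29.2, 27.2 and 33.3 CPM (−1.01), and Sfxn1, a mitochondrial serine transporter, fell by 0.89. Rnf19b, a ubiquitin ligase of immune cells, rose from 22.7, 20.3 and 23.4 CPM to 38.6, 43.2 and 40.1 CPM (0.87 ± 0.14). The pseudogene Cyp21a2-ps, which lies across from Tnxb, rose from 0.737, 0.484 and 0.404 CPM to 4.72, 3.33 and 2.52 CPM (2.69 ± 0.39). Each of these 5 genes was separate between the diets and held without any 1 library.

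Acute phase genes, secreted by hepatocytes in inflammation, were mixed in females, with 6 of 33 called higher and 3 lower (median 0.61). Over all genes 5.83% were called higher and 6.63% lower, so the 3 lower calls lay near that share. Leaving out any 1 library left 2 to 4 called higher and 0 to 2 lower, and the average over both sexes had 3 higher and 5 lower (median −0.06). Saa4, the constitutive serum amyloid A, rose from 61.2, 63.7 and 115 CPM to 282, 370 and 249 CPM (1.91 ± 0.42, adjusted p = 0.00162), and the complement gene C4b rose from 998, 895 and 980 CPM to 1947, 1984 and 2204 CPM (1.09 ± 0.26, adjusted p = 0.00299). The inducible Saa1 was at 9.58, 10.1 and 15.8 CPM on CD and at 98.0, 49.0 and 88.6 CPM on HFD, without overlap, yet its value of 2.73 had an adjusted p of 0.152. In males Saa1 was at 1152, 1339 and 1620 CPM on CD and at 61.8, 38.4 and 32.2 CPM on HFD (−4.96, adjusted p = 0.0122). Female HFD mice were thus within reach of the male HFD mice, and the male CD mice stood far above all other groups. The metallothionein gene Mt1 fell from 491, 609 and 320 CPM to 144, 106 and 123 CPM (−1.93, adjusted p = 0.0252), with an adjusted p of 0.110 without HFD replicate 2.

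Other programs often followed in fatty liver are given beside the 12.5% of all genes called in these females. Of 40 extracellular matrix genes the collagen gene Col3a1 was called higher (1.31) and the secreted regulator Ccn2 lower (−1.54), with a list median of 0.23. Of 38 endoplasmic reticulum stress genes the chaperone gene Pdia6 (1.29) and the stress hormone gene Gdf15 (1.99) were called higher and 0 lower (median 0.38). These 4 calls were lost without single libraries, with adjusted p of 0.112 for Col3a1 without HFD replicate 1, 0.207 for Ccn2 without CD replicate 2, 0.0985 for Pdia6 without CD replicate 1 and 0.135 for Gdf15 without CD replicate 2. Of 34 oxidative phosphorylation genes only Cycs, cytochrome c, was called, lower at −0.73 (median 0.01), and it held without any 1 library. Of 30 cell cycle genes E2f1 (1.19) and Mcm5 (1.29) were called higher and the nucleotide reductase subunit Rrm2 lower at −1.18 (median 0.23). E2f1 had an adjusted p of 0.0568 without HFD replicate 1 and Mcm5 of 0.119 without HFD replicate 2. No circadian gene of 25 was called (0.25). Oxidative stress genes had 5 of 26 called higher and 0 lower (0.31), Gclc, Gclm and Gpx1 among them, and those 3 held without any single library. Missing the threshold does not show that these genes were level, since 3 mice per group leave moderate differences undetected.

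In males 1840 genes were called, 12.8% of those tested, with 686 higher (4.79%) and 1154 lower (8.05%). The male count was 666 without male CD replicate 3, 1102 without male HFD replicate 1 and 1147 without male HFD replicate 2. Of the 1840, 387 were also called in females, 369 of them in the same direction. The male log2 fold change had the same sign for 76.5% of the genes called in females, with a male median of 0.22 for those higher and −0.25 for those lower in females. The difference between the female and the male response was called for 435 genes, 3.04%, of which 323 had the larger value in females (2.25%) and 112 the smaller (0.782%). That count rests on single mice: it was 27 without male CD replicate 3, 1298 without male CD replicate 1, 943 without male CD replicate 2, 184 without female HFD replicate 1, 63 without female HFD replicate 2, 56 without female CD replicate 1 and 154 without female CD replicate 2. The average over both sexes had 2950 calls (20.6%), 1320 higher (9.21%) and 1630 lower (11.4%).

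The gene groups of the females were also counted in males, where 4.79% of all genes were called higher and 8.05% lower. Of 41 interferon genes 2 were called higher in males, Irgm2 (1.23) and Gbp7 (1.04), near the share over all genes. None of them was called lower, and their median was 0.50. Macrophage genes had 0 higher and 2 lower, Cd9 (−1.30) and Gpnmb (−1.57), with a median of −0.19. By the test of the difference, 3 interferon and 5 macrophage genes had a larger response in females, among them Clec4f (difference 1.23), C1qa (1.57), Oas3 (1.75), Ifi27l2a (2.36) and Bst2 (1.35). Without male CD replicate 3 these 5 differences were 1.15, 1.14, 1.47, 1.77 and 0.87, with adjusted p of 0.149, 0.272, 0.328, 0.22 and 0.297. Amino acid genes had 11 called lower and 3 higher in males (median −0.22), with Cps1 at −0.89, Asl at −1.56 and Ass1 at −0.27, and the difference between the sexes was called for 1 of 39 genes, Dbt, of branched-chain amino acid breakdown. Oxidative phosphorylation genes had 17 of 34 called lower in males (median −0.40) against 1 in females, with the difference called for 3.

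**Figure D4:**
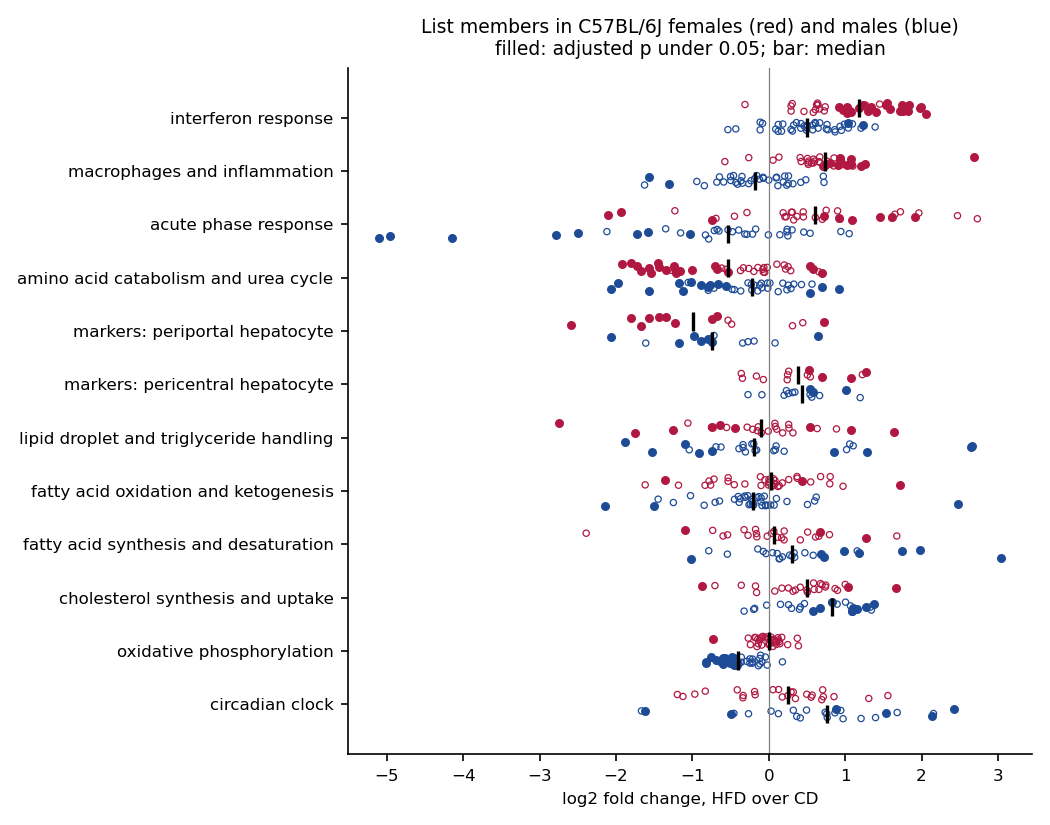
Log2 fold change of HFD over CD (horizontal axis) for the members of 12 gene lists in C57BL/6J females (red) and males (blue); filled points have an adjusted p under 0.05 by edgeR and vertical bars mark list medians. The interferon median is 1.18 in females and 0.50 in males, and the amino acid medians are −0.54 and −0.22.

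Of 20 Mup genes, 10 were called lower in males (median −1.57) and the difference between the sexes was called for 8, all higher in females, and this difference cannot be told apart from that between low and higher animal numbers. The median was 0.20 in the average over both sexes. The difference was 5.70 for Mup15 (adjusted p = 9.19e-11), 6.36 ± 0.81 for Mup17 and 5.86 for Mup18, and these 3 differences held without any 1 of the 12 mice. Fosb (5.85) also held, where leaving out male CD replicate 3 gave an adjusted p of 0.0294, while Fos (6.39, adjusted p = 0.00936) had 5.22 and an adjusted p of 0.143 without that mouse. Fos in males was at 4.23, 4.25 and 20.6 CPM on CD and at 1.34, 1.91 and 1.99 CPM on HFD. Pde6c, a phosphodiesterase subunit, fell by 1.72 in females, from 1.51, 1.49 and 3.50 CPM to 0.944, 0.454 and 0.569 CPM, and was at 1.89 in males, a difference of −3.61 that held without any 1 of the 12 mice. The female fall itself had an adjusted p of 0.0673 without CD replicate 3. Mcc, a colorectal tumour suppressor candidate, differed by −1.73 and also held.

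Females of the other 8 strains gave a further comparison. The response of C57BL/6J females differed from the mean response of the others for 217 genes (1.51%), 90 with the higher value (0.628%) and 127 with the lower (0.886%). Without single C57BL/6J libraries the count was 35 (HFD replicate 1), 32 (HFD replicate 2), 46 (CD replicate 1) and 59 (CD replicate 2), and without the library labelled 129S1/SvImJ f CD replicate 1 it was 231.

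Urea cycle and amino acid genes were prominent among them, with 8 of 39 lower in C57BL/6J than in the other strains by this test and 0 higher. Cps1 had −1.68 in C57BL/6J, −0.87 in PWK/PhJ, −0.81 in DBA/2J and −0.25 to 0.22 in the others, and its difference from their mean, −1.45 (adjusted p = 0.00148), held without any 1 C57BL/6J library. Asl (difference −1.19), Hal (−1.30) and Ass1 (−0.95) were called as well, but had an adjusted p of 0.124, 0.0984 and 0.226 without HFD replicate 1. The list median in females was −0.54 in C57BL/6J with 17 genes lower and 3 higher, −0.21 in DBA/2J with 6 lower and 1 higher, 0.01 in PWK/PhJ with 7 lower and 5 higher, −0.04 in CAST/EiJ and −0.13 to 0.05 in the remaining 5 strains, where 129S1/SvImJ had 0.10 without CD replicate 1. Over all genes tested the strains also differed in their number of calls, with 1308 higher and 1084 lower in PWK/PhJ, 963 and 906 in CAST/EiJ, 836 and 950 in C57BL/6J, 483 and 365 in DBA/2J, and 14 to 71 higher and 9 to 85 lower in the remaining 5. For interferon genes the median was 1.76 in PWK/PhJ (34 called higher), 1.18 in C57BL/6J (25), 1.15 in DBA/2J (23), 0.78 in WSB/EiJ (1), 0.60 in CAST/EiJ (5), 0.28 in NZO/HlLtJ, 0.09 in A/J, 0.08 in NOD/ShiLtJ and −0.24 in 129S1/SvImJ, or −0.59 there without CD replicate 1. The difference from the other strains was called for 1 of the 41 interferon list members, Oas3 (1.41, adjusted p = 0.0428). That call was lost without any 1 of the 6 libraries, with an adjusted p up to 0.181. Outside the list Gbp10 was also called (2.69), with an adjusted p of 0.151 without CD replicate 1.

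**Figure D5:**
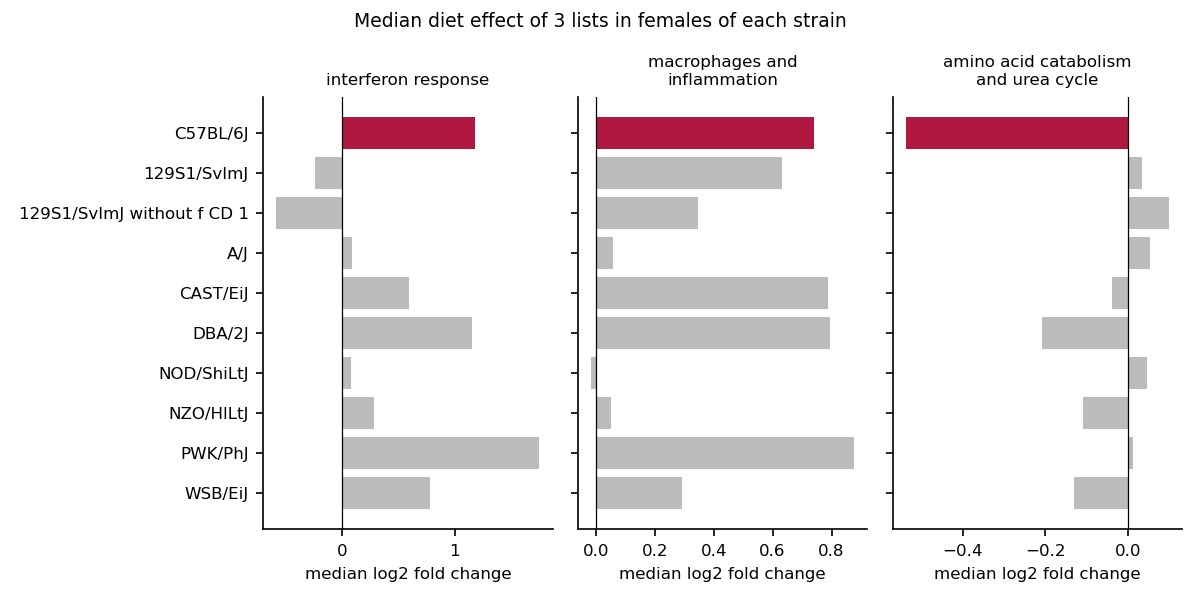
Median log2 fold change of HFD over CD in females (horizontal axis) for the interferon, macrophage and amino acid lists in each of 9 strains, with 129S1/SvImJ also shown without CD replicate 1, whose sex-linked genes go against its label; each bar is a list median in 1 strain. The interferon median is highest in PWK/PhJ, C57BL/6J and DBA/2J, and the amino acid median is lowest in C57BL/6J.

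Macrophage medians were 0.88 in PWK/PhJ, 0.79 in DBA/2J and CAST/EiJ, 0.74 in C57BL/6J, 0.63 in 129S1/SvImJ (0.35 without CD replicate 1), 0.29 in WSB/EiJ and −0.02 to 0.06 in NOD/ShiLtJ, NZO/HlLtJ and A/J, and no macrophage gene differed between C57BL/6J and the others by the test. The Mup median was 1.38 in C57BL/6J, 1.86 in WSB/EiJ, 1.69 in PWK/PhJ, 1.21 in CAST/EiJ, 1.14 in NOD/ShiLtJ, 0.86 in A/J, −0.19 in NZO/HlLtJ, −0.54 in DBA/2J and −2.81 in 129S1/SvImJ, the last being −0.80 without CD replicate 1. Mup17 had the largest well-held difference, 3.78 above the mean of the other strains, and kept its call without any 1 C57BL/6J library. The rise itself was shared, since Mup17 was also called higher in CAST/EiJ (3.52), WSB/EiJ (3.17) and PWK/PhJ (1.599). It stood at 1.31 in A/J and 0.73 in NOD/ShiLtJ, neither called. Values under 0 were −1.04 in NZO/HlLtJ, −1.21 in DBA/2J and −2.53 in 129S1/SvImJ, the last being −0.47 without CD replicate 1. Mup15 has no count in females of at least 1 strain on a diet. Its difference from the other strains is therefore uncertain, and it was not called. Fosb moved in opposite directions between strains, from 5.32 in PWK/PhJ and 4.56 in C57BL/6J to −7.83 in WSB/EiJ, and its difference of 4.37 had an adjusted p of 0.0634 without HFD replicate 3. A1bg (4.003) rose in C57BL/6J and ranged from −2.68 to 0.48 in the other strains, or from −3.28 when 129S1/SvImJ was taken without CD replicate 1, and its difference had an adjusted p of 0.0546 without C57BL/6J CD replicate 1. Gclc (1.30), Gfra1 (−1.11), Rbmx (−0.96), Scamp1 (−0.87), Rnf19b (0.73) and Ugt1a9 (−1.77) differed from the other strains and held without any 1 C57BL/6J library. Of these, Ugt1a9 fell in C57BL/6J and ranged from −0.37 to 1.35 elsewhere.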

How the data were processed

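RNA from 106 mouse livers, 1 library per mouse, was sequenced after preparation with the SMARTER mRNA-Seq kit, per the labels' protocols. The authors deposited whole-number read counts per gene in 1 table, although its name speaks of TMM, and the counts were used as deposited. The submitters' processing notes name FastQC, STAR 2.73a and edgeR 3.24.3. The build, annotation, counting tool and strand setting are not given in the sources used here. Genes carry Ensembl identifiers, and 14321 of 14330 were named from GENCODE M21. Summary lines of the counter were left out of totals and tests.

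Groups were taken from the labels. One model of 36 group means over all 106 libraries was fitted with edgeR 4.0.16 in R 4.3.3 (TMM factors, quasi-likelihood F test), with Benjamini-Hochberg adjustment over 14330 genes at 0.05. Contrasts were the diet effect in C57BL/6J females, in males, their difference and average, and the female effect minus the mean of the 8 other strains' females. Alternatives used DESeq2 1.42.0, limma 3.58.1, RLE factors, a filter at the 25th percentile, a minimum log2 change of 0.5, subsets of libraries, and each library left out in turn. The fits were tested on simulated data. CPM values use TMM-scaled library sizes. With single libraries left out, the spread was still estimated over all groups.

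Named genes are the 10 largest called rises and falls with separate groups and a mean of at least 1 CPM, the 5 of smallest p each way, the 4 highest and lowest differences from males and from other strains, and list members (up to 4 of smallest p, and pathway steps). Predicted genes, immunoglobulin segments, Y-linked genes, Xist and Tsix were left out of the first 3 parts. The genes and lists were chosen with earlier results of these data known. The Mup, Gbp, Oas, Hnrnp, Srsf and immediate early lists, and some single genes, were added after the values were seen. So were a list of Slc22a transporters and a list of Eif translation initiation factors, which are not described here. Some named genes are not reported here. Gene lists got no test and are given by counts and medians.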

Additional observations from a re-analysis of the deposited data

Results flagged for a closer look

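Each group here has 3 mice, so single mice were not tested for standing apart. The values below are differences between 2 responses on the log2 scale, each past an adjusted p of 0.05 by edgeR's quasi-likelihood test, and each is given because the response differed between the groups.

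In 31 named genes the female response differed from the male one. It was higher in females for Saa1 (7.69), Saa2 (7.57), Fos (6.39), Mup17 (6.36), A1bg (5.97), Mup18 (5.86), Fosb (5.85), Mup15 (5.70), Mup11 (4.80), Mup16 (4.78), Mup14 (4.43), Saa3 (4.16), Gdf15 (3.35), Mup19 (3.04), Ifi27l2a (2.36), Ier2 (2.21), Slc22a7 (2.12), Mup22 (1.97), Oas3 (1.75), Pdia6 (1.73), C1qa (1.57), Bst2 (1.35), Clec4f (1.23), Gpx1 (1.02), Txn1 (0.92) and Ndufa1 (0.79). It was lower in females for Pde6c (−3.61), Slc4a9 (−3.55), Eppk1 (−2.19), Mcc (−1.73) and Rbmx (−1.0003). Low and higher animal numbers cannot be told apart from this difference, and 21 of the 31 lose the threshold without male CD replicate 3.

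In 37 named genes the response of C57BL/6J females differed from the mean of the other strains' females. It was higher for Sult2a3 (4.62), Fosb (4.37), A1bg (4.003), Fos (3.91), Mup17 (3.78), Cyp3a16 (3.01), Hao2 (3.00), Mup18 (2.84), Gbp10 (2.69), Slc22a7 (2.04), Rhbg (1.44), Oas3 (1.41), Gclc (1.30), Rnf19b (0.73) and Pex6 (0.44). It was lower for Smpd3 (−2.78), Slc13a5 (−2.56), Eif4ebp3 (−2.30), Pde6c (−2.01), Ugt1a9 (−1.77), Eppk1 (−1.73), Cth (−1.49), Cps1 (−1.45), Hal (−1.30), Mcc (−1.22), Asl (−1.19), Gfra1 (−1.11), Rbm3 (−1.07), Slc7a2 (−1.02), Rbmx (−0.96), Ass1 (−0.95), Scamp1 (−0.87), Srsf3 (−0.73), Hnrnpa1 (−0.72), Hnrnpdl (−0.66), Srsf7 (−0.55) and Hsd17b13 (−0.54). All 37 held without the library labelled 129S1/SvImJ f CD replicate 1, and between 5 and 24 of them lost the threshold without 1 C57BL/6J library. Against a minimum log2 change of 0.5, 33 of the 37 lost it, as did 11 with the libraries of females alone and 5 with limma.

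Outside the gene rows of the table, the share of reads that matched more than 1 gene was higher on HFD, with 5.66% in the lowest HFD library, than in any female CD library. Its part in the gene results was not tested.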

How the results depend on the processing

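No called gene named in the text changed sign under any alternative, but many lost the threshold: of 130 named calls in females, 82 did against a minimum log2 change of 0.5, 13 with the libraries of females alone, 11 with the 12 C57BL/6J libraries and 7 with limma. The balance of higher and lower calls did turn: in females it was 836 higher and 950 lower, but 925 and 869 with RLE factors, 1044 and 988 with DESeq2, 987 and 851 with the 12 C57BL/6J libraries, 1688 and 1522 with the 6 female libraries, 950 and 896 without the library labelled 129S1/SvImJ f CD replicate 1, and 764 and 676 without C57BL/6J f HFD replicate 3. With the 12 libraries it was 679 and 668 in males and 1381 and 1334 in the average, which was 1403 and 1313 without C57BL/6J m CD replicate 3. Against a minimum log2 change of 0.5 the calls were 126 in females, 142 in males, 16 for the female minus male difference, 208 for the average and 5 for the difference from other strains. The 6 female libraries alone gave 3210 calls. The female minus male count was 738 with DESeq2, 288 with limma and 153 with the 12 C57BL/6J libraries alone, and the count for other strains was 403 with DESeq2. Leaving out 1 library gave 720 to 1787 calls in females, 666 to 2272 in males, 27 to 1298 for the difference between the sexes, 2235 to 2931 for the average and 32 to 294 for other strains. The cause was not tested. With the other alternatives the female count was 1598 to 2032. No paired analysis was possible because the labels carry no replicate numbers shared between groups. With 3 mice a group, the smaller changes are the ones depth and replication leave undecided, and genes of lower CPM rest on fewer counts per library.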
